A study of Danio rerio with 7 samples.

Results

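The genes described here build and run the contractile apparatus of skeletal muscle: filament proteins, Z-disc proteins, proteins that release or buffer calcium, and the enzymes that buffer muscle energy. They were chosen by symbol. All 44 symbols were found, and they took 47 gene IDs of the 32520 reference genes, because myhz1.1, smyhc2 and actc1a each stand for 2 IDs. By fibre type, 27 IDs were grouped as fast, 5 as slow and 15 as shared between fibre types. Of the 47, 46 passed the filter on low values (at least 1 TPM, the deposited transcript abundance, in at least 2 of the 7 libraries). The smyhc2 ID that did not pass, ENSDARG00000111606, lies on an unplaced scaffold and had 0 to 0.640 TPM.

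RNA came from whole larvae of a transgenic zebrafish line that overexpresses CD36, a fatty acid uptake receptor, at 15 days post fertilization (dpf). All 3 groups carry the transgene, and the labels name no promoter for it. Larvae fed the 24% high-fat diet and then exposed overnight to CACF at 40 µg/ml in E3 buffer gave 2 libraries, labelled fish 2 and fish 4 (HFD + CACF). Larvae on the 24% high-fat diet without CACF gave 2 libraries, also labelled fish 2 and fish 4 (HFD), and larvae on the 12% normal diet gave 3, labelled fish 1, 2 and 4 (ND), the study's control. The labels do not say what CACF is, whether all larvae without CACF spent the night in the buffer, whether each library is 1 larva or a pool, or whether the fish came from separate clutches. The p-values therefore measure only the spread between these libraries, which may be technical.

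Skeletal muscle shortens when myosin heads of the thick filament pull on actin of the thin filament. Calcium released through ryanodine receptors binds troponin C, which moves troponin I and tropomyosin off the actin sites. Parvalbumin and the pump SERCA then take the calcium away. The axial muscle of a zebrafish larva is mostly fast fibres, with a thin outer layer of slow fibres, and each fibre type uses its own myosin and troponin genes.

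Between 12699552 and 22543693 reads per library were recovered from the deposited normalized counts. The 2 HFD libraries were the shallowest. Mitochondrial genome transcripts took 27.9% and 20.3% of the reads in HFD + CACF, 13.0% and 10.3% in HFD, and 16.6%, 9.26% and 7.06% in ND. ND fish 1 stood apart in lens markers, which summed to 17040 TPM there and to 146 to 305 TPM in the other 6 libraries. Cardiac markers were low, with a sum of 5.84 to 11.7 TPM over the 10 of 12 symbols found. Whole larvae were sequenced, so fewer muscle cells and less muscle RNA per cell cannot be told apart.

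Muscle genes were among the most abundant transcripts of these larvae. Of the 20 genes with the highest mean TPM, 5 were muscle genes: pvalb1 and pvalb2, parvalbumins, ranked 6 and 11, mylpfa and mylz3, fast myosin light chains, ranked 15 and 16, and actc1b, an alpha-actin, ranked 18. The 47 IDs together held 44754 and 50742 TPM in HFD + CACF, 38448 and 79899 TPM in HFD, and 46246, 61568 and 79404 TPM in ND. The HFD libraries thus held both the lowest and the highest sum of all 7. As a share of recovered reads the same IDs made up 5.49% and 6.23% in HFD + CACF, 5.00% and 10.4% in HFD, and 7.06%, 7.24% and 10.5% in ND. When reads of the mitochondrial genome were left out, the shares were 7.61% and 7.81% in HFD + CACF, 5.74% and 11.6% in HFD, and 8.47%, 7.98% and 11.3% in ND. On both bases of reads the HFD + CACF libraries were below the ND libraries, though close to ND fish 2 on the second. They were not when TPM was rescaled without the mitochondrial genome genes, where the sum was 89057 and 87048 TPM in HFD + CACF, 65082 and 120944 TPM in HFD, and 71871, 89365 and 113994 TPM in ND.

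The fast program outweighed the slow one in every library. Fast myosin heavy chain genes (myhz1.1, myhz1.2, myhz1.3, myhz2 and myhb) held all but about 1% of myosin heavy chain TPM. The slow genes smyhc1 and smyhc2 made up 0.997% and 0.906% in HFD + CACF, 0.765% and 0.904% in HFD, and 0.909%, 0.932% and 1.04% in ND. By TPM both HFD libraries lay below the other 5 libraries, by a narrow gap for HFD fish 4. By reads the slow share was 1.07% and 0.963% in HFD + CACF, 0.729% and 0.886% in HFD, and 0.962%, 0.871% and 0.983% in ND, so HFD fish 4 then lay above ND fish 2. Assembled loci, deposited beside the reference genes, are left out of these shares. The highest over smyhc1 had 93.0 and 201 TPM in HFD + CACF and 40.3 and 373 TPM in HFD. In ND it had 17.2, 121 and 281 TPM. The highest over myhz1.2 had 273 and 6564 TPM in HFD + CACF, and 567, 584 and 8512 TPM in ND. HFD fish 2 had none there and HFD fish 4 had 10735 TPM. The part of these loci in the slow share was not tested.

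**Figure D1:**
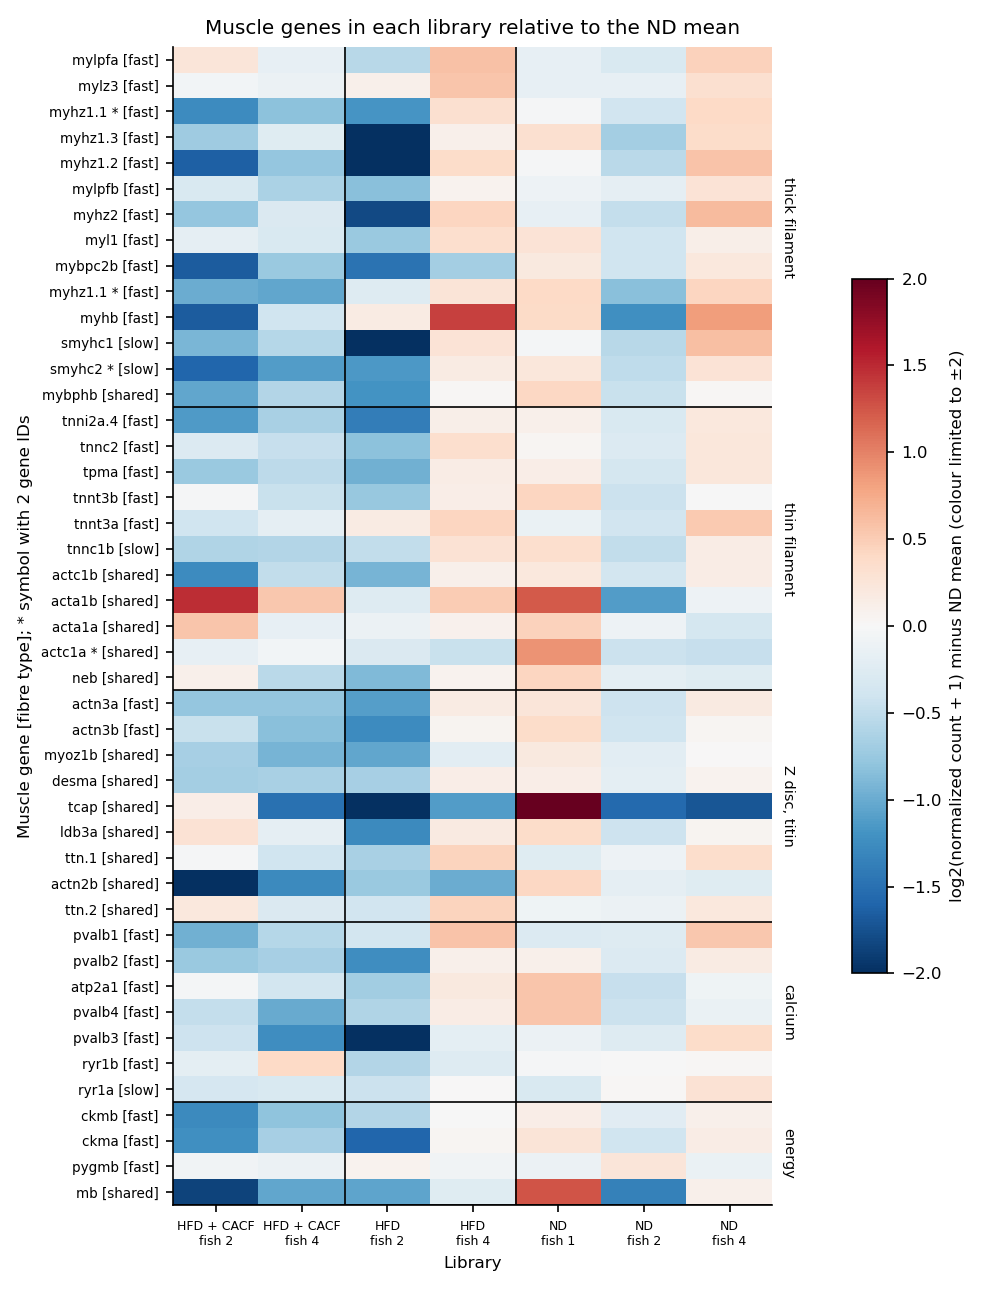
Difference of each muscle gene's log2(normalized count + 1) from its mean over the 3 ND libraries, for 45 gene IDs (rows, by role and fibre type) in the 7 libraries (columns, by group). Blue is lower and red higher than the ND mean. The HFD fish 2 column and both HFD + CACF columns are mostly blue, and the HFD fish 4 column is mostly pale red.

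The 2 HFD libraries lay far apart in these genes. On the TPM scale, the median muscle gene stood at -0.45 and -0.29 (log2, relative to the ND mean) in HFD + CACF fish 2 and fish 4. It stood at -0.83 in HFD fish 2 but 0.15 in HFD fish 4. In ND fish 1, 2 and 4 it stood at -0.19, -0.05 and 0.21. HFD fish 2 held the lowest value of all 7 libraries for 29 of the 46 genes, and HFD fish 4 for 0. Within the HFD group, 42 of 46 genes were higher in fish 4 than in fish 2 (52.5% of all genes). The median difference was 0.97 (log2), where the median over all genes tested was 0.03. ND leaned the same way, with 32 of 46 genes higher in fish 4 (28.7% of all genes) and a median difference of 0.25. On normalized counts 39 of 45 were higher in ND fish 4 (47.1% of all genes), with a median of 0.50. HFD + CACF did not on TPM, with 26 of 46 (53.9% of all genes) and a median of 0.04.

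**Figure D2:**
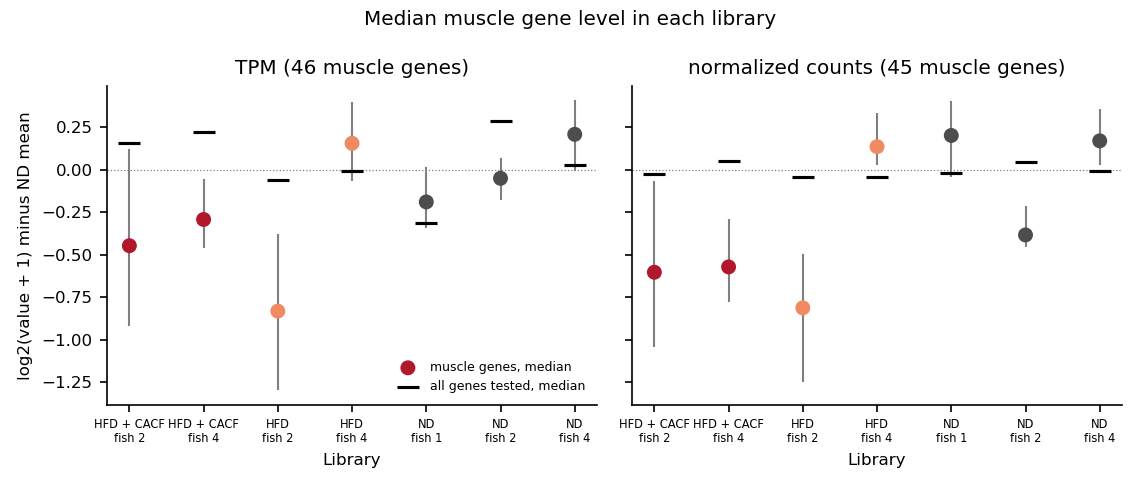
Median over muscle genes (points, HFD + CACF red, HFD orange, ND grey) of the difference in log2(value + 1) from the ND mean, with lines from the lower to the upper quartile of the genes, for TPM (left) and normalized counts (right). Black dashes mark the same median over all genes tested. HFD fish 2 is lowest on both scales, at -0.83 and -0.81, while HFD fish 4 stands at 0.15 and 0.13.

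The comparison of HFD with ND asks what the diet changed in this line. No muscle gene passed the test: 0 of 46 were called by limma with Benjamini-Hochberg adjustment over all 18169 genes tested at 0.05, where 0% of all genes were called. At an unadjusted p under 0.05 there were 2 of 46, where 3.31% of all genes reached that level. On the recovered reads edgeR and DESeq2 called 0 muscle genes, and 0% of all genes. In the authors' deposited table for the same comparison 0 of the 21 muscle genes with an adjusted p were under 0.05. The other 26, among them pvalb1, pvalb2, mylpfa, mylz3 and actc1b, had none. Of all 29567 genes, with or without an adjusted p, 0.203% were under 0.05. The median log2 fold change over the muscle genes was -0.39, against -0.03 over all genes, and 37 of 46 were below 0, where 52.8% of all genes were. On normalized counts the median was -0.40, and 37 of 45 genes were below 0, where 54.0% of all genes were. The median rested on 1 library. On TPM it was 0.15 without HFD fish 2 and -0.83 without HFD fish 4, and on normalized counts 0.13 and -0.81. Its sign thus followed which HFD library was kept. In 4 of 46 genes (actn3b, actn2b, mybpc2b and myoz1b) both HFD libraries lay below all 3 ND libraries in TPM, against 12.1% of all genes. In 1 gene, the actc1a ID ENSDARG00000076126, both lay above, against 6.11% of all genes. On normalized counts 4 of 45 genes lay below (actn2b, mybpc2b, ryr1b and myoz1b, without actn3b), against 14.1% of all genes, and 0 above (11.5%).

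The comparison of HFD + CACF with ND joins the diet with the exposure. Most muscle genes had a negative fold change, and no gene passed the limma test. Of 46 genes 0 were called, where 0.0771% of all genes (14, all lower) were, and 5 had an unadjusted p under 0.05, where 12.5% of all genes did. On the recovered reads edgeR called 0 (0.0191% of all genes) and DESeq2 called 1, actn2b (2.27% of all genes), and limma on normalized counts called 0 (0.148%). The median log2 fold change was -0.42 over the muscle genes and 0.19 over all genes, a difference of -0.61. Of the 46 genes 34 were below 0, where 36.2% of all genes were, and 40 lay below the median of all genes. On the deposited normalized counts the median was -0.64 over 45 muscle genes and 0.00 over all genes, and 40 of 45 were below 0, where 50.0% of all genes were.

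In 18 of 46 genes (39.1%) both HFD + CACF libraries lay below all 3 ND libraries in TPM, against 8.72% of all genes. They were the thick-filament genes myhz1.1 (both IDs), myhz1.2, smyhc2, mybpc2b and mybphb, the thin-filament genes tnni2a.4, tnnc1b and actc1b, the Z-disc genes actn3a, actn2b, desma and myoz1b, the parvalbumins pvalb2 and pvalb4, and ckma, ckmb and mb. On normalized counts 25 of 45 did (55.6%), against 16.7% of all genes, and 0 lay above all ND libraries, against 16.3%. In TPM 2 genes lay above, acta1b and the actc1a ID ENSDARG00000076126, against 19.2%. The mitochondrial genome genes had the opposite sign, with a median log2 fold change of 1.44 and 13 of 13 above 0, and exocrine pancreas markers had a median of -3.22 with 9 of 9 below 0. Markers of other tissues were also mostly below 0. The median was -0.64 for keratinocyte markers (7 of 8 below 0), -0.30 for hepatocyte markers (6 of 8) and -1.89 for lens markers (8 of 9). Their part in the muscle values was not tested. With TPM rescaled after the mitochondrial genome genes were removed, the median was -0.11 over the muscle genes and 0.46 over all genes.

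The comparison of HFD + CACF with HFD asks what CACF changed on the high-fat diet. The sign of the muscle genes depended on the scale and on which HFD library was kept. Of 46 genes 0 were called, where 0.0055% of all genes (1) was, and 1 had an unadjusted p under 0.05, where 13.8% of all genes did. edgeR called 0 (0% of all genes), as did DESeq2 (3.25%) and limma on normalized counts (0.0143%). The median log2 fold change was 0.05 over the muscle genes and 0.16 over all genes, and 19 of 46 genes were below 0, where 37.1% of all genes were. Of the 46 genes 32 lay below the median of all genes. The muscle median was -0.49 without HFD fish 2 and 0.58 without HFD fish 4, so here too the sign followed 1 library. It was also negative on normalized counts, at -0.13 with 31 of 45 genes below 0 (50.7% of all genes), and after median-of-ratios scaling, at -0.17 with 36 of 46 (52.3%). Below 0 were 35 of 45 in edgeR (51.0% of all genes) and 35 of 47 in DESeq2 (47.8%). With quantile normalization 23 of 46 were (51.3%), and on FPKM 24 of 46 (41.8%). In 6 of 46 genes both HFD + CACF libraries lay below both HFD libraries in TPM (13.4% of all genes), and in 4 of 46 they lay above (36.2%). On normalized counts 9 of 45 lay below (23.2%) and 3 above (24.8%). These comparisons share libraries, so their values are not independent of each other.

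**Figure D3:**
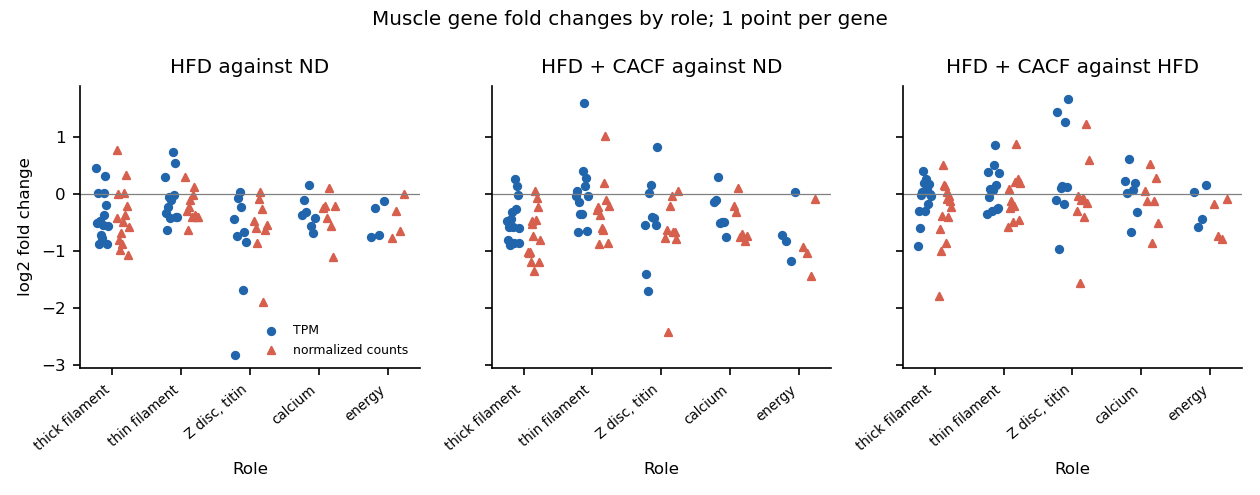
log2 fold change of each muscle gene, grouped by role, on TPM (blue circles) and on normalized counts (red triangles), for HFD against ND, HFD + CACF against ND and HFD + CACF against HFD. In the middle panel most points of every role lie below 0. The acta1b point (1.60 on TPM, 1.01 on normalized counts) is the highest there, and actn2b (-1.71 and -2.44) the lowest.

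In the thick filament, 12 of 14 genes tested had a negative log2 fold change for HFD + CACF against ND, with a median of -0.53 and a range from -0.90 to 0.26, and 10 of 14 did for HFD against ND, with a median of -0.49. mylpfa (ENSDARG00000053254), the fast regulatory light chain, had 7834 and 5965 TPM in HFD + CACF, 3750.3 and 8772 TPM in HFD, and 3965, 5752 and 8129 TPM in ND. The groups overlapped fully. Its paralog mylpfb was lower throughout, and the ratio of mylpfa to mylpfb in TPM was 34.0 and 32.0 in HFD + CACF, 27.5 and 32.2 in HFD, and 21.8, 21.1 and 25.8 in ND. All 4 high-fat libraries, with or without CACF, lay above the 3 ND libraries in this ratio, and the same held in normalized counts (53.4 to 64.6 against 40.5 to 50.2). This ratio was picked out after its values were seen, so it is given without a test.

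mybpc2b (ENSDARG00000021265), a fast myosin-binding protein C, had the smallest unadjusted p of the thick filament in both comparisons with ND. It had 2.96 and 5.95 TPM in HFD + CACF, 3.14 and 5.62 TPM in HFD, and 7.58, 7.96 and 10.5 TPM in ND. Every high-fat library, exposed or not, lay below every ND library. How many of all genes did so was not counted, so this split is given without a background. For HFD against ND alone, 8.70% of muscle genes lay below in TPM, against 12.1% of all genes. For HFD + CACF against ND alone, 39.1% of muscle genes did, against 8.72% of all genes. The log2 fold change was -0.87 ± 0.40 (SE) for HFD + CACF against ND (limma, adjusted p = 0.401) and -0.88 ± 0.40 for HFD against ND (adjusted p = 0.9996), so neither passed. On normalized counts the values were -1.21 ± 0.38 (adjusted p = 0.275) and -1.07 ± 0.38 (adjusted p = 0.785).

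myhb (ENSDARG00000001993), a fast myosin heavy chain gene, was lower in HFD + CACF than in HFD in each library, though at low levels. It had 0.617 and 1.36 TPM in HFD + CACF, 1.62 and 4.24 TPM in HFD, and 1.72, 0.833 and 2.9997 TPM in ND, so only the first 2 groups were apart. The log2 fold change for HFD + CACF against HFD was -0.92 ± 0.47 (adjusted p = 0.428). On normalized counts it was -1.80 ± 0.73 (adjusted p = 0.282). smyhc1 (ENSDARG00000099959), the most abundant slow myosin heavy chain, had 13.4 and 18.8 TPM in HFD + CACF, 5.74 and 31.3 TPM in HFD, and 16.9, 21.4 and 39.4 TPM in ND. mybphb, myosin-binding protein H, had 64.0 and 107 TPM in HFD + CACF, 61.9 and 116 TPM in HFD, and 123, 114 and 144 TPM in ND, and its HFD + CACF libraries lay below all ND libraries.

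The fast myosin heavy chain genes myhz2, myhz1.3, myhz1.2 and 1 myhz1.1 ID lie side by side on chromosome 5 of GRCz11, between 32206378 and 32309129, and smyhc1 and smyhc2 on chromosome 24, between 40656510 and 40700596. Such copies share sequence, and neither labels nor headers state how reads that match several of them were counted, so the split between them is uncertain. The myhz1.1 ID of chromosome 5 (ENSDARG00000067990) had 895 and 1237 TPM in HFD + CACF, 716 and 2338 TPM in HFD, and 1454, 1719 and 2511 TPM in ND. Summed over all myosin heavy chain genes, the level was 1726 and 2731 TPM in HFD + CACF, 1201 and 4689.7 TPM in HFD, and 2719, 3172 and 5164 TPM in ND.

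In the thin filament, 7 of 12 genes had a negative log2 fold change for HFD + CACF against ND, with a median of -0.04, and 9 of 12 did for HFD against ND, with a median of -0.17. tnni2a.4 (ENSDARG00000029069), a fast troponin I that holds actin in the off state, had 950.5 and 1340.5 TPM in HFD + CACF, 674 and 2029 TPM in HFD, and 1509, 1821 and 2152 TPM in ND. tnnc1b (ENSDARG00000037539), a slow-type troponin C, had 25.8 and 26.5 TPM in HFD + CACF, 23.5 and 44.4 TPM in HFD, and 33.1, 30.3 and 38.1 TPM in ND. For both genes the HFD + CACF libraries lay below all ND libraries, and so did HFD fish 2. HFD fish 4 lay within the ND range for tnni2a.4 and above it for tnnc1b.

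The alpha-actins differed in direction. actc1b (ENSDARG00000099197), which supplied most TPM of the listed alpha-actins, had 3306 and 5724 TPM in HFD + CACF, 3517 and 7564 TPM in HFD, and 6151, 6656 and 7910.5 TPM in ND. acta1b (ENSDARG00000055618, chromosome 13, 24279021 to 24284442, plus strand) had the opposite sign for HFD + CACF against ND, with 534 and 257 TPM in HFD + CACF, 128 and 325 TPM in HFD, and 108, 75.4 and 220.2 TPM in ND. Its share of the TPM of the listed alpha-actins was 13.6% and 4.25% in HFD + CACF, 3.45% and 4.08% in HFD, and 1.70%, 1.11% and 2.69% in ND, so every high-fat library was above every ND library. That split of the share has no background over all genes here. The log2 fold change for HFD + CACF against ND was 1.60 ± 0.55 (limma, adjusted p = 0.299), which did not pass. It was 1.08 without HFD + CACF fish 2, the library with the highest value.

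The recovered reads gave a smaller difference for acta1b. Its normalized counts were 1613 and 837 in HFD + CACF, 481 and 824 in HFD, and 1346, 265 and 535 in ND, so ND fish 1 lay among the HFD + CACF libraries, and the log2 fold change was 1.01 ± 0.62 (adjusted p = 0.487). It was 1.62 without ND fish 1 and 0.45 without ND fish 2. Its share of the reads of the listed alpha-actins was 1.86% and 0.579% in HFD + CACF, 0.451% and 0.380% in HFD, and 0.577%, 0.169% and 0.238% in ND. acta1a, the other gene of this pair, had 42.2 and 25.6 TPM in HFD + CACF, 19.8 and 26.6 TPM in HFD, and 26.2, 28.5 and 20.4 TPM in ND. The actc1a ID ENSDARG00000076126 had 16.1 to 25.4 TPM but 0 to 7.03 normalized counts, so the 2 deposited measures disagreed on whether it was expressed. It is included in the counts and medians given on TPM, but no direction is drawn from it alone.

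Log2 fold changes of the thin filament for HFD + CACF against ND ranged from -0.68 to 1.60 on TPM. On normalized counts their median was -0.29, with 9 of 11 below 0. tnnc2, the fast troponin C, had 1421 and 1279 TPM in HFD + CACF, 833 and 1951 TPM in HFD, and 1190.1, 1548 and 1817 TPM in ND. tpma, a tropomyosin, had 1102 and 1349 TPM in HFD + CACF, 769 and 1756 TPM in HFD, and 1332, 1551 and 1854 TPM in ND. neb, the filament ruler nebulin, had 18.9 and 11.9 TPM in HFD + CACF, 8.03 and 16.2 TPM in HFD, and 17.3, 16.3 and 13.2 TPM in ND. In TPM the groups overlapped for all 3 of these genes. On normalized counts HFD + CACF lay below ND for tnnc2, by a narrow gap (log2 fold change -0.37), and for tpma (-0.63).

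**Figure D4:**
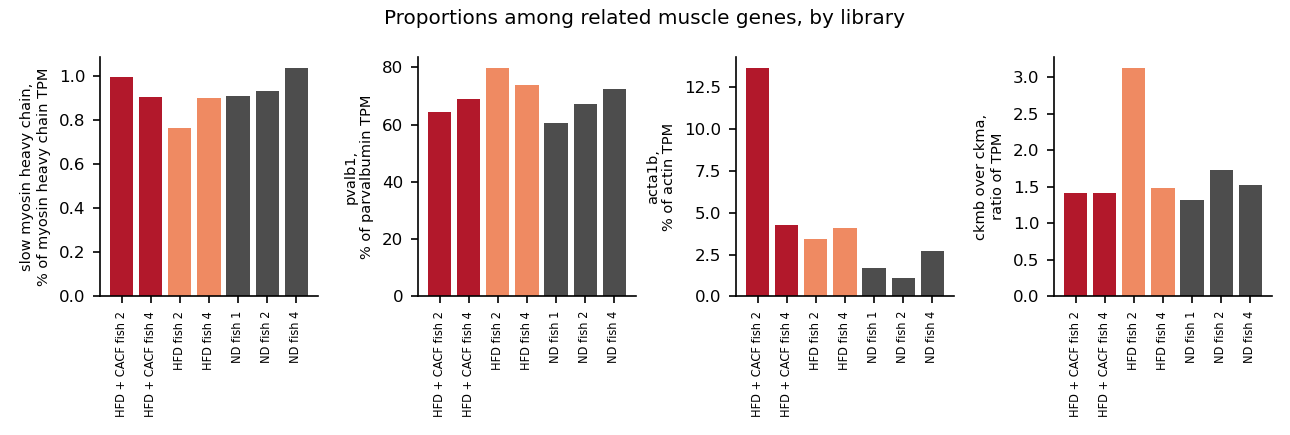
Bars give, in each library (HFD + CACF red, HFD orange, ND grey), the slow share of myosin heavy chain TPM, the pvalb1 share of parvalbumin TPM, the acta1b share of actin TPM, and the ratio of ckmb to ckma TPM. The acta1b share is highest in HFD + CACF fish 2, at 13.6%, and the ckmb to ckma ratio in HFD fish 2, at 3.12.

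Among Z-disc and titin genes, 6 of 9 had a negative log2 fold change for HFD + CACF against ND, with a median of -0.43 and a range from -1.71 to 0.81, and 8 of 9 did for HFD against ND, with a median of -0.67. actn2b (ENSDARG00000071090, chromosome 17, 20122019 to 20143946, minus strand) encodes an alpha-actinin, which crosslinks actin filaments at the Z disc. It had 0.951 and 4.96 TPM in HFD + CACF, 6.03 and 5.39 TPM in HFD, and 10.3, 11.6 and 8.78 TPM in ND. The 3 groups did not overlap in any pair, in TPM or in normalized counts, which were 45.7 and 231 in HFD + CACF, 337 and 282 in HFD, and 753, 495 and 477 in ND. For HFD + CACF against ND the log2 fold change was -1.71 ± 0.46 (limma, adjusted p = 0.205), the smallest adjusted p of any muscle gene in that comparison.

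The call on actn2b depended on the tool, and its fold change on 1 library. In DESeq2 on the recovered reads it passed, at -2.05 ± 0.54 (adjusted p = 0.0102), and 2.27% of all genes were called there. In limma without HFD + CACF fish 4, which leaves 1 library in that group, it was -2.52 on TPM and -3.59 on normalized counts. Without HFD + CACF fish 2 it was -0.91 on TPM. In edgeR it was -2.07 (adjusted p = 0.293). In the authors' deposited table for CACF against normal diet, actn2b had an adjusted p of 0.0981, the smallest of the 21 muscle genes that had one, and 26 of 47 had none. Of those 21 genes 0 were under 0.05 there, against 0.94% of all 29567 genes, with or without an adjusted p.

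actn3a (ENSDARG00000013755), a fast alpha-actinin, had 136 and 139 TPM in HFD + CACF, 94.3 and 232 TPM in HFD, and 187, 189 and 234 TPM in ND, so both HFD + CACF libraries and HFD fish 2 lay below ND, and HFD fish 4 lay within the ND range. Its paralog actn3b (ENSDARG00000001431, chromosome 7, 6969909 to 7133475, plus strand) had 3.25 and 21.0 TPM in HFD + CACF, 1.55 and 4.05 TPM in HFD, and 32.2, 14.6 and 31.5 TPM in ND. By TPM its log2 fold change for HFD against ND was -2.84 ± 0.62 (adjusted p = 0.9996), the most negative of any muscle gene. By normalized counts it was -0.60 ± 0.40 (adjusted p = 0.785), from 1872 and 1424 in HFD + CACF, 1065 and 2644 in HFD, and 3271, 1931 and 2608 in ND, and HFD fish 4 then lay within the ND range.

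ldb3a (ENSDARG00000056322), a PDZ-LIM protein that anchors alpha-actinin, had 39.0 and 19.98 TPM in HFD + CACF, 5.00 and 12.8 TPM in HFD, and 23.9, 12.4 and 12.4 TPM in ND. Its log2 fold change for HFD + CACF against HFD was 1.67 ± 0.53 (adjusted p = 0.160). In normalized counts it had 1077 and 775 in HFD + CACF, 363 and 995 in HFD, and 1137, 659 and 913 in ND, and the fold change was 0.60 ± 0.47 (adjusted p = 0.590), with overlapping groups. myoz1b (ENSDARG00000071445), a calsarcin of the Z disc, had 43.3 and 37.998 TPM in HFD + CACF, 27.8 and 49.7 TPM in HFD, and 60.6, 62.6 and 55.9 TPM in ND. Every high-fat library thus lay below ND, a split not counted over all genes. tcap, which caps titin at the Z disc, was set by ND fish 1. It had 17.8 and 5.69 TPM in HFD + CACF, 1.81 and 6.69 TPM in HFD, and 103, 5.52 and 4.04 TPM in ND. ND fish 1 is also the library with the high lens markers, and that library's part in the tcap value was not tested.

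The titin genes ttn.1 and ttn.2, giant springs from Z disc to thick filament, lie next to each other on chromosome 9. ttn.1 had 10.5 and 8.24 TPM in HFD + CACF, 5.71 and 12.9 TPM in HFD, and 5.97, 10.6 and 12.0 TPM in ND. ttn.2 had 6.75 and 4.79 TPM in HFD + CACF, 3.72 and 6.96 TPM in HFD, and 3.67, 5.75 and 5.95 TPM in ND. desma, the intermediate filament protein desmin, had 27.9 and 29.2 TPM in HFD + CACF, 23.8 and 43.7 TPM in HFD, and 33.0, 41.3 and 41.2 TPM in ND. Only desma had its HFD + CACF libraries below all ND libraries.

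**Figure D5:**
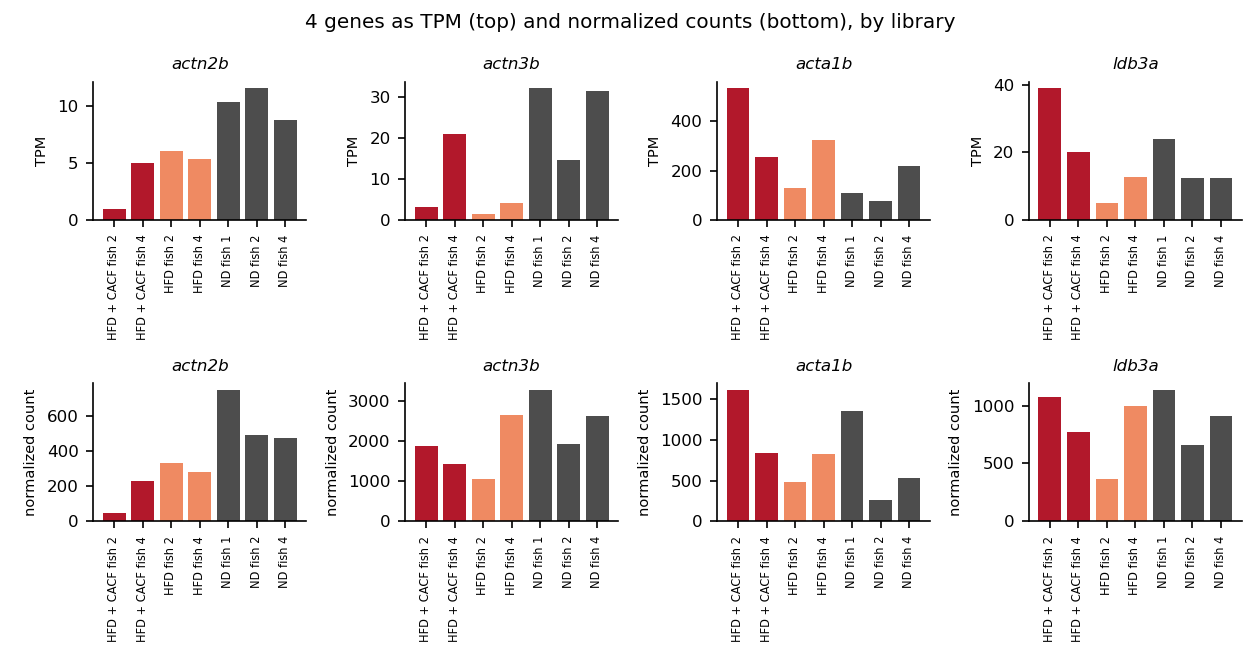
TPM (top) and normalized counts (bottom) of actn2b, actn3b, acta1b and ldb3a in each library (HFD + CACF red, HFD orange, ND grey). actn2b keeps the order of its groups on both scales, whereas actn3b in HFD fish 4 has 4.05 TPM but 2644 normalized counts, within the ND range of 1931 to 3271.

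Between libraries, TPM and normalized counts differed in scale for most of these genes, and they parted furthest for 4. The number of normalized counts per TPM varied between libraries, with a median highest-to-lowest ratio of 1.61 among the 45 genes with at least 10 reads in every library. It was highest in ND fish 1 for 42 of the 45. It exceeded 2 for 4 genes: 10.2 for actn3b, 5.15 for acta1b, 2.81 for ldb3a and 2.74 for myhz1.3. For actn3b there were 576 and 67.7 normalized counts per TPM in HFD + CACF, 689 and 653 in HFD, and 102, 133 and 82.8 in ND. At the same place the deposited files listed 2 and 2 assembled loci in HFD + CACF, 7 and 6 in HFD, and 3, 4 and 4 in ND. The highest TPM of these loci was 30.1 and 21.0 in HFD + CACF and 70.3 and 38.4 in HFD. In ND it was 32.2, 31.0 and 34.2, so that value was not lower in HFD, unlike the TPM of actn3b itself. Any locus on the same strand that overlapped the gene was counted, so the highest need not be a transcript of actn3b. Whether the assembled loci or their number set the TPM of actn3b was not tested. Fold changes of actn3b, acta1b and ldb3a are therefore given on both scales. The log2 fold change of myhz1.3 was -0.48 on TPM and -0.98 on normalized counts for HFD against ND, -0.44 and -0.48 for HFD + CACF against ND, and 0.03 and 0.50 for HFD + CACF against HFD.

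Among calcium genes, 6 of 7 had a negative log2 fold change for HFD + CACF against ND, with a median of -0.49 and a range from -0.76 to 0.29, and 6 of 7 did for HFD against ND, with a median of -0.37. pvalb1 (ENSDARG00000037789), the main parvalbumin, had 10697 and 13923 TPM in HFD + CACF, 13989.9 and 27009 TPM in HFD, and 11073, 18299 and 26389 TPM in ND. HFD + CACF lay below HFD in TPM, by a narrow gap, and overlapped ND. In normalized counts it had 97299.6 and 126518 in HFD + CACF, 146729 and 279688 in HFD, and 155271, 157800.1 and 274136 in ND, so HFD + CACF lay below both. pvalb1 made up 64.3% and 68.8% of the TPM of the listed parvalbumins in HFD + CACF, 79.6% and 74.0% in HFD, and 60.6%, 67.2% and 72.5% in ND. Both HFD libraries had a larger share than the other 5 libraries.

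pvalb2, the next parvalbumin, had 5839 and 6249.6 TPM in HFD + CACF, 3508 and 9379 TPM in HFD, and 7056, 8800.4 and 9871 TPM in ND. pvalb4 (ENSDARG00000024433) had 88.3 and 58.2 TPM in HFD + CACF, 71.0 and 115 TPM in HFD, and 149, 113 and 107 TPM in ND, with a log2 fold change of -0.76 ± 0.40 for HFD + CACF against ND (adjusted p = 0.460). Both had HFD + CACF libraries below all ND libraries. pvalb3 had 6.92 and 4.63 TPM in HFD + CACF, 2.67 and 8.35 TPM in HFD, and 6.01, 8.43 and 11.6 TPM in ND, with a log2 fold change of -0.68 ± 0.46 for HFD against ND (adjusted p = 0.9996).

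The ryanodine receptors are the calcium release channels. ryr1b (ENSDARG00000023797), the fast-fibre receptor, had 3.53 and 5.52 TPM in HFD + CACF, 2.23 and 2.88 TPM in HFD, and 2.67, 4.44 and 3.37 TPM in ND. It was higher in both HFD + CACF libraries than in both HFD libraries, with a log2 fold change of 0.62 ± 0.40 (adjusted p = 0.594), and 0.52 on normalized counts. ryr1a, the slow-fibre receptor, had 0.998 and 1.04 TPM in HFD + CACF, 0.868 and 1.15 TPM in HFD, and 0.707, 1.47 and 1.42 TPM in ND. atp2a1, the fast-fibre calcium pump SERCA1, had 227 and 178 TPM in HFD + CACF, 125 and 236 TPM in HFD, and 264, 214 and 196 TPM in ND. In TPM the 3 groups overlapped for ryr1a and atp2a1. On normalized counts ryr1a had 227 and 232 in HFD + CACF, 214 and 289 in HFD, and 233, 291 and 350.0 in ND, so HFD + CACF lay just below ND.

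Among the energy genes, 3 of 4 had a negative log2 fold change for HFD + CACF against ND, with a median of -0.78 and a range from -1.17 to 0.04, and 4 of 4 did for HFD against ND, with a median of -0.49. ckma and ckmb encode muscle creatine kinase, which refills ATP from phosphocreatine. ckmb (ENSDARG00000040565) had 1389 and 2102 TPM in HFD + CACF, 2069 and 3157 TPM in HFD, and 2479, 3275 and 3487 TPM in ND. The HFD + CACF libraries lay below all ND libraries, and the log2 fold change was -0.83 ± 0.38 (adjusted p = 0.400) against ND and -0.58 ± 0.42 (adjusted p = 0.646) against HFD. In normalized counts the value against ND was -1.04 ± 0.34 (adjusted p = 0.281). ckma (ENSDARG00000035327) had 986 and 1485 TPM in HFD + CACF, 664 and 2126 TPM in HFD, and 1884, 1889 and 2285 TPM in ND. Its log2 fold change for HFD against ND was -0.76 ± 0.47 (adjusted p = 0.9996), and 0.080 without HFD fish 2. The ratio of ckmb to ckma was 1.41 and 1.42 in HFD + CACF, 3.12 and 1.48 in HFD, and 1.32, 1.73 and 1.53 in ND, and HFD fish 2 alone stood out.

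mb (ENSDARG00000031952), the oxygen carrier myoglobin, had 2.48 and 4.06 TPM in HFD + CACF, 3.82 and 5.76 TPM in HFD, and 16.2, 4.23 and 8.44 TPM in ND. Its log2 fold change for HFD + CACF against ND was -1.17 ± 0.48 (adjusted p = 0.357) and -0.74 without ND fish 1, the library with the highest value. HFD + CACF lay below ND in TPM by a narrow gap. On normalized counts these 2 groups overlapped, with 39.1 and 69.5 in HFD + CACF and 347, 55.8 and 154 in ND. pygmb, muscle glycogen phosphorylase, had overlapping HFD + CACF and ND libraries, with 50.5 and 48.3 TPM in HFD + CACF, 45.3 and 42.6 TPM in HFD, and 40.4, 67.3 and 40.5 TPM in ND.

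By fibre type, the log2 fold change for HFD + CACF against ND had a median of -0.47 over 27 fast genes (22 below 0), -0.47 over 4 slow genes (4 below 0) and -0.04 over 15 shared genes (8 below 0). For HFD against ND the medians were -0.37, -0.33 and -0.40, with 21 of 27, 4 of 4 and 12 of 15 below 0. On normalized counts the medians for HFD + CACF against ND were -0.64, -0.67 and -0.44, so the gap between shared and fibre-specific genes was smaller there.

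Other muscle genes were read from lists beyond the 47. In no list was a gene called in limma in any of the 3 comparisons. For HFD + CACF against ND, the other slow fibre genes had a median log2 fold change of -0.62 (4 of 5 below 0), the other fast fibre genes -0.70 (6 of 7 below 0), the excitation-contraction coupling genes -0.13 (9 of 16), the assembly, Z-disc and costamere genes -0.07 (13 of 19), the muscle fuel enzymes -0.15 (8 of 15), the myogenic regulators 0.01 (6 of 12) and the neuromuscular junction genes 0.19 (0 of 4). On normalized counts the medians of the same lists, in that order, were -1.05, -0.93, -0.37, -0.44, -0.61, -0.0029 and 0.33, so those of the coupling, assembly and fuel lists were further below 0 than on TPM.

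The genes with the smallest p in these lists lay on both sides of 0. eno3, muscle enolase of glycolysis, had 199.6 and 351 TPM in HFD + CACF, 322 and 495 TPM in HFD, and 551, 695 and 652 TPM in ND, with a log2 fold change of -1.25 ± 0.40 for HFD + CACF against ND (adjusted p = 0.281). All 4 high-fat libraries lay below ND, a split not counted over all genes. gapdh, another glycolytic enzyme, had 482 and 583 TPM in HFD + CACF, 728 and 835 TPM in HFD, and 1182, 1126 and 897 TPM in ND (adjusted p = 0.321 for HFD + CACF against ND). For HFD + CACF against HFD, cacnb1, the beta subunit of the voltage sensor, had 7.71 and 6.73 TPM against 0.873 and 0.935 TPM, with a log2 fold change of 2.11 ± 0.55 (adjusted p = 0.106). It had 1.32, 5.83 and 0.714 TPM in ND. In normalized counts cacnb1 had 219 and 187 in HFD + CACF, 79.1 and 78.5 in HFD, and 150.3, 156 and 64.1 in ND, and the log2 fold change for HFD + CACF against HFD was 1.35 (adjusted p = 0.225). pax7a, a muscle stem cell factor, had 6.34 and 5.85 TPM in HFD + CACF against 0.470 and 0.872 TPM in HFD (2.10 ± 0.51, adjusted p = 0.102), with 2.07, 5.19 and 0.757 TPM in ND. sgcb, a sarcoglycan of the muscle membrane, had 14.6 and 13.7 TPM in HFD + CACF against 2.82 and 4.25 TPM in HFD (1.76 ± 0.44, adjusted p = 0.102). Both pax7a and sgcb are given on TPM only, and sgcb is not set against ND here. In TPM 36.2% of all genes had both HFD + CACF libraries above both HFD libraries, and on normalized counts 24.8% did.

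Among the remaining list genes with the smallest p, casq1a, the calcium store protein calsequestrin, had 26.5 and 11.4 TPM in HFD + CACF, 3.25 and 16.6 TPM in HFD, and 4.35, 5.10 and 7.36 TPM in ND (log2 fold change 1.51 ± 0.56 against ND, adjusted p = 0.327). myog, the differentiation factor myogenin, had 6.16 and 7.95 TPM in HFD + CACF, 3.03 and 3.44 TPM in HFD, and 5.03, 3.86 and 3.25 TPM in ND (0.92 ± 0.40 against HFD, adjusted p = 0.312). myl13, a slow myosin light chain in the list used here, had a log2 fold change of -0.98 ± 0.47 for HFD against ND (adjusted p = 0.9996), and tnni2a.3, a fast troponin I, one of 0.90 ± 0.39 (adjusted p = 0.9996). Smooth muscle markers summed to 29.1 and 72.8 TPM in HFD + CACF, 124 and 119 TPM in HFD, and 128, 98.4 and 175 TPM in ND, and 8 of 8 tested were below 0 for HFD + CACF against ND.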

How the data were processed

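The 7 libraries were made with a stranded mRNA kit, per the labels' protocols. The submitters' processing notes list FastQC, Trimmomatic, HISAT2 and DESeq2 and give no version of any. File names of the deposited abundances state GRCz11. Which program counted the reads, and whether it used strand, is not stated.

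The authors deposited a TPM, an FPKM and a coverage (signal) value per gene and library. TPM values of assembled loci sum to 1000000 in each deposited file, and reference genes add 739551 to 884988 more, so a TPM here is a share of a total that differs between libraries. The authors also deposited tables of log2 fold changes, p-values, a Wald statistic (a score) and normalized counts (signal). Whole reads were recovered from the normalized counts for 100% of values, within 0.001. The normalized counts are not raw, so the test planned for TPM was used.

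Genes with at least 1 TPM in 2 of 7 libraries were fitted with limma 3.58.1 (R 4.3.3) on log2(TPM + 1), with a mean per group over all 7 libraries, a variance trend and Benjamini-Hochberg adjustment at 0.05. A fold change on that scale understates changes of low genes. Normalized counts were fitted the same way for genes with at least 10 in 2 libraries, and edgeR 4.0.16 and DESeq2 1.42.0 were run on the recovered reads. The fit was also run on simulated reads, with the same dispersion for every gene and no shift between replicates shared by many genes. These libraries did show such shifts, so that run does not show how the fit performs on them. No 2 libraries of a group agreed within sampling noise. Depth limits the counts of low genes, and intervals from replicates cover these libraries only.

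The muscle genes, their classes and the other lists were chosen with earlier results of these data known. A gene is given in full if it was called, had the highest mean TPM of its role and fibre type, or had the smallest p of its role in a comparison, and from other lists those with the smallest p were named. tcap, pygmb, pvalb2, atp2a1, acta1a, tnnc2, tpma, neb, ttn.1, ttn.2, desma, the chromosome 5 myhz1.1 ID and the paralog ratios were added after their values were seen. Alternatives were other pseudocounts, filters and scalings, FPKM, robust moderation, fits on 2 groups, a block for fish number, and each library left out. Added after the data were seen were the normalized counts with the block or without each library, and TPM without mitochondrial genome genes. No sequence is printed because no sequence table was used here.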

Additional observations from a re-analysis of the deposited data

How the results depend on the processing

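The number of muscle genes called was 0 under 82 of 87 alternative fits. It was 1 for HFD + CACF against ND in DESeq2 (actn2b), where 2.27% of all genes were called. It was also 1 for HFD + CACF against HFD in limma on normalized counts with the replicate block (myhb, adjusted p = 0.0410). There 3.37% of all genes were called. With 1 library left out it ranged from 0 to 1 for HFD + CACF against ND on TPM and on normalized counts, and from 0 to 1 for HFD + CACF against HFD on normalized counts, the 1 being reached without HFD + CACF fish 4 each time; a lone library in a group was assumed to vary like the other groups. The median log2 fold change of the muscle genes stayed within the spread between replicates under 76 of 87, where each comparison of each fit counts apart. Among the 76 were fits that could not move the median, such as robust moderation, fits on 2 groups, or a left-out library from outside the comparison. For HFD against ND it ranged from -0.83 to 0.15 with 1 library left out (-0.81 to 0.13 on normalized counts). For HFD + CACF against HFD it ranged from -0.49 to 0.58 (-0.70 to 0.34 on normalized counts), and it was -0.24 in edgeR. For HFD + CACF against ND it ranged from -0.51 to -0.24 with 1 library left out (-0.84 to -0.52 on normalized counts). It was -0.11 on TPM without mitochondrial genome genes, where the all-gene median also shifted, to 0.46.

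Among values of single genes 472 kept their sign and their side of the threshold, 4 passed it in addition, and 5 changed sign, all for HFD against ND or HFD + CACF against HFD. They were the actc1a ID ENSDARG00000076126 in DESeq2 (-3.46), ckma without HFD fish 2 (0.080, with a range of -1.60 to 0.080, and 0.045 on normalized counts), and on normalized counts without HFD fish 2 actn3b (0.056) and ldb3a (-0.12). Over all genes the number called for HFD + CACF against ND was 14, against 2 with no filter, 39 with a filter of 5 TPM, 8 with quantile normalization, 3 on FPKM, 31 on normalized counts, 4 in edgeR, 671 in DESeq2, 64 with robust moderation and 60 with fits on 2 groups. For HFD + CACF against HFD it was 1, against 5 with a pseudocount of 0.1, 4 with a filter of 5 TPM, 3 on normalized counts, 960 in DESeq2 and 273 with robust moderation. With 1 library left out it ranged from 1 to 126 for HFD + CACF against ND (0 to 372 on normalized counts), highest without HFD + CACF fish 4 on both scales. Between HFD + CACF and HFD it ranged from 0 to 143, highest without ND fish 4 (0 to 154 on normalized counts, highest without HFD + CACF fish 4), and it was 0 throughout for HFD against ND. The cause was not tested for any of these.

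The labels do not say that a fish number marks a shared clutch, batch or day, and 2 shared numbers are too few to settle from the data whether it pairs the libraries. Only ND has a fish 1, so a block for fish number gives ND fish 1 no weight in the fold changes against ND. The block medians against ND equal those without ND fish 1. With fish number as a replicate block the muscle medians were -0.37 for HFD against ND, -0.51 for HFD + CACF against ND and 0.05 for HFD + CACF against HFD, with 0 muscle genes called in each, while the block called 0, 155 and 940 genes in all. The deviations of the fish 2 libraries correlated over all genes at 0.475, 0.290 and 0.194 in the same comparisons (0.432, 0.383 and 0.269 on normalized counts).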
